A study of Mus musculus with 12 samples.

Results

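The wild-type (WT) chromatin of neural progenitors was described from 6 of the 12 libraries of the series, 3 for H3K27ac and 3 for H3K9me3, on chromosomes 1 to 19. The members are all WT libraries, and the regions are those with an H3K27ac peak or a listed H3K9me3 value in them. The cells were neural progenitors grown as neurospheres, floating clusters of dividing cells, from the ganglionic eminence of C57BL/6 embryos at E15.5, in mid-gestation, and each library was made by native ChIP-seq from 100000 nuclei. The 3 H3K9me3 animals (2 female and 1 male) and the 3 H3K27ac animals (1 female and 2 male) were different embryos, so the marks were never measured in the same culture. The labels call the genotype WT and do not say whether these embryos carried a Cre driver or a floxed allele. The remaining 6 libraries, from a Nestin-KO of Setdb1, were not used, and no contrast with them was made.

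H3K27ac is an acetyl group on lysine 27 of histone H3 that acetyltransferases such as EP300 and CREBBP place at active promoters and enhancers. H3K9me3 is a trimethyl group on lysine 9 of the same histone that enzymes such as SETDB1 and SUV39H2 place, that HP1 proteins bind, and that covers satellite repeats, retrotransposons and some gene clusters. Many KRAB zinc finger proteins bind retrotransposons and recruit TRIM28 with SETDB1, and the genes that encode them are themselves known targets of H3K9me3 over their zinc finger exons. The ganglionic eminences of the ventral forebrain produce GABAergic interneurons, and their progenitors are known for Dlx and Gsx transcription factors beside general neural stem cell genes such as Sox2 and Fabp7.

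The marks were deposited in different forms. H3K27ac came as 1 MACS2 peak list per library, and the fold enrichment of each peak is the authors' own value, used here to rank peaks within a list. H3K9me3 came as 1 table with 3 normalised read values per region, and which animal each belongs to is not stated, so a value is named by its position in the cell (first, second or last). That table holds only regions that the authors listed from a KO against WT comparison. It is not a full WT map, regions outside it were not analysed here, and each share of genes with H3K9me3 below is a share with a listed region. The table also gives an enrichment of the WT libraries whose reference is not stated, and regions at 1.5 or more are called WT-rich, a limit chosen after seeing the data.

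The promoters that the results turn on are shown first. Each line gives the 150 bases before a transcription start, 5′ to 3′ in the direction of the gene, from RefSeq's GRCm38.p6 (mm10). Capitals mark matches on either strand to 8 short motifs, namely ETS (CCGGAAG), Sp and Klf (GGGCGG), NFY (CCAAT), NRF1 (GCATGCG), CREB (TGACGTCA) and ZBTB33 (CTCGCG), the letters AAGATGG that the factor YY1 is known to bind, and the box for the basal transcription machinery, searched as TATAAA. A match is a description of letters and not a bound site, and matches may overlap. The first 4 carried strong H3K27ac in all 3 libraries, namely Aimp1 (chr3:132683880-132684029, minus strand), Zfp619 (chr7:39517616-39517765, plus), Zfp868 (chr8:69625176-69625325, minus) and Zfp433 (chr10:81704675-81704824, plus). Hes6 (chr1:91413223-91413372, minus), a member of the Notch pathway list used below, and Atf7ip (chr6:136518701-136518850, plus), the partner of SETDB1, follow. Zfp873 (chr10:82047973-82048122, plus) lay in regions of both marks, and Dazl (chr17:50293621-50293770, minus), a germ cell gene, lay in H3K9me3 with no H3K27ac peak.
Aimp1: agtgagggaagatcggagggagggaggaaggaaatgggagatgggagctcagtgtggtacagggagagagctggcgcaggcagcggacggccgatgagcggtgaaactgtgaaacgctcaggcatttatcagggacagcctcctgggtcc
Zfp619: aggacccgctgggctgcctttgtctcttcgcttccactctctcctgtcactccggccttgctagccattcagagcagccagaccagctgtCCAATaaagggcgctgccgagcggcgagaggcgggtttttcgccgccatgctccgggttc
Zfp868: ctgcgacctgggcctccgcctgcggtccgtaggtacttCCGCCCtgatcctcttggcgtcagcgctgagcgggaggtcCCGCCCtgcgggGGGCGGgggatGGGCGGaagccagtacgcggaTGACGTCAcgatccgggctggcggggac
Zfp433: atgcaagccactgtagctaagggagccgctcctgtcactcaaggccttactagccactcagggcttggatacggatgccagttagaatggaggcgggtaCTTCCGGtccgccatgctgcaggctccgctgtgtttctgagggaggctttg
Hes6: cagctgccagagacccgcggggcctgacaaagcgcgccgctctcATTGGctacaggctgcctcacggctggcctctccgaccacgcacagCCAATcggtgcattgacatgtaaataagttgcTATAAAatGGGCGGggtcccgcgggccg
Atf7ip: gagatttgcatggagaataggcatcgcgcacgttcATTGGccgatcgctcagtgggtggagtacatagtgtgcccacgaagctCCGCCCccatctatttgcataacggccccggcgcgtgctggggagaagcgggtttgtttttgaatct
Zfp873: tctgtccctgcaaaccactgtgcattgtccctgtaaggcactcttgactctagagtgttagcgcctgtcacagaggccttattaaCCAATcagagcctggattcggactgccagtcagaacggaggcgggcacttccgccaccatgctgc
Dazl: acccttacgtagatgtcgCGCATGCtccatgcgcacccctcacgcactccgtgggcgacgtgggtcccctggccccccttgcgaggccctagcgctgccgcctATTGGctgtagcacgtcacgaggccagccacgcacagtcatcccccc
None of the 8 motifs was found in this window of Aimp1. NFY letters stand in Zfp619, Zfp873, Hes6, Atf7ip and Dazl, an ETS match in Zfp433, and a CREB match with 4 Sp and Klf matches in Zfp868. Hes6 also holds TATAAA and an Sp and Klf match.

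The 3 H3K27ac lists differed mainly in length. They held 31354, 36516 and 12111 autosomal peaks in replicates 1, 2 and 3, with median widths of 236, 355 and 256 bp and median fold enrichments of 4.77, 4.24 and 4.20. Merging overlapping peaks gave 48588 regions. Of these, 27839 came from 1 library, 12923 from 2 and 7826 (16.1%) from all 3, and the last are called shared regions. Of the regions of replicate 3, 68.6% were shared, against 26.4% and 21.7% for replicates 1 and 2, and without replicate 3 the regions common to the other 2 libraries rose to 17915. The depth of these libraries is unknown, and its part in the list lengths was not tested. A region without a peak is therefore not shown to lack the mark, and fewer cells with a mark cannot be told apart from less of it per cell.

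Regions found in more libraries were wider and more often at gene starts. The share within 1 kb of an annotated start was 23.7% for regions of 1 library, 51.0% for regions of 2 and 59.0% for shared regions, and the median merged width was 228, 439 and 675 bp, a width that grows with the number of merged peaks. Shared regions at starts numbered 4616 and those farther away 3210. When each peak was ranked by fold enrichment within its own list, the median of the lowest of the 3 rank percentiles was 52.5 at starts and 35.5 away from them. Over the regions shared by a pair of libraries, Spearman's rho of fold enrichment was 0.605 for replicates 1 and 2, 0.41 for 1 and 3, and 0.589 for 2 and 3, given as a description over regions of the same libraries.

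The very strongest H3K27ac regions were not promoters. Regions were ordered by their lowest rank percentile, so that a region leads only if it is strong in every library. Among the first 40, 36 overlapped a listed H3K9me3 region, 34 of them above 200 normalised reads per kb, and 4 lay within 1 kb of a start. Among the 400 regions after the first 100 the order was reversed, with 84.8% at starts and 5.25% in listed H3K9me3. The leading region (chr6:103649026-103649362, 337 bp) lay in the body of Chl1, a neural cell adhesion gene, with fold enrichments of 47.2, 35.8 and 38.3. In the same place H3K9me3 was listed at 137900, 215700 and 213400 reads per kb, against medians of 39.0, 42.5 and 37.1 over all listed regions. The next 2 (chr16:98107452-98107793 and chr19:61331251-61331578) had folds of 30.8, 34.2 and 36.6, and of 30.4, 32.4 and 36.1, and were 110 and 103 kb from the nearest coding start. All 3 libraries placed these regions at or near the top of their lists.

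The strongest acetylated starts were of noncoding as well as coding genes. Gm40237, with folds of 13.3, 11.1 and 10.8, led and lay in dense H3K9me3 (1265, 2858 and 3318 reads per kb). Rnu3b2 (18.4, 13.5 and 10.4) and Rnu3b4 (19.3, 13.1 and 8.12), which encode the U3 small nucleolar RNA, stood among the first 15, as did Gm10777 and Gm10060. Of the coding genes, the region at the shared start of Aimp1, a component of the multi-tRNA synthetase complex, and Tbck (chr3:132683434-132684571) had folds of 16.2, 12.2 and 10.2. Exo1, a DNA repair exonuclease (chr1:175880500-175880931), had 19.4, 10.03 and 9.18, and Srp19, a subunit of the signal recognition particle, had 14.5, 9.51 and 9.10. Cul2, a ubiquitin ligase scaffold, 2610008E11Rik, Cops5 with Cspp1, Ttc30b and Mccc1 followed, with lowest folds between 8.14 and 8.66. At these coding starts the lowest fold was in replicate 3 or replicate 2.

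Of the zinc finger genes, Zfp619 (chr7:39517315-39518007) had folds of 13.5, 10.8 and 8.79 and Zfp882 (chr8:71908182-71909341) had 15.02, 10.3 and 8.32. Zfp868 had 19.9, 11.4 and 8.09, Zfp33b 12.6, 8.86 and 8.03, and Zfp433 14.7, 11.4 and 7.89. The lowest rank percentiles of these 5 genes were between 99.0 and 99.28. Breadth gave other genes. The widest stretches covered by all 3 libraries at coding starts were 1038 bp at Arpc4 and Tada3, an actin nucleation subunit beside an acetyltransferase complex subunit, and 1011 bp at Etv6, an ETS repressor. Cpsf2 with Ndufb1 (992 bp), Prmt6 (984 bp), Zfr (972 bp), Zfp62 (962 bp), Pafah1b1 (956 bp), Itgb8 (947 bp) and Duxbl2 (933 bp) followed, against a median of 209 bp over shared regions. This order was not stable: of the 100 widest regions 11 remained when the merged width was used and 29 without replicate 3.

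Away from starts and outside listed H3K9me3, the strongest shared regions that are named were singled out after their values were seen. A region 38.8 kb from Dpy19l1 (chr9:24541953-24542229) had 10.9, 17.7 and 20.8, highest in replicate 3. Regions near Hsd17b12, Scgb2a2, Pex2, Bst1 and Ctdsp1 followed, with lowest folds from 6.48 to 7.89. The distances are to the nearest coding start and do not say which gene a region acts on.

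Across the genome, 4406 of 20665 protein-coding genes (21.3%) had a shared H3K27ac region within 1 kb of a start, and 8771 (42.4%) had a region of 2 or 3 libraries. Of the 4365 genes with a region of exactly 2 libraries, 4131 lacked replicate 3. Because that library sets most of the difference, most lists are given by both counts, and without replicate 3 the first count became 8597. The median lowest percentile of the 4406 genes was 55.3. These values are the background for every list below.

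Zinc finger genes of the Zfp series, many of which encode KRAB repressors of transposable elements, stood above the background. A shared region lay at the start of 201 of 386 (52.1%), and a region of 2 or 3 libraries at 291 (75.4%), with a median lowest percentile of 67.8 for the 201. With peaks of −log10 q of 5 or more the share was 29.0% of Zfp genes against 9.88% of all coding genes, and without replicate 3 it was 74.9% against 41.6%. Restricted to genes whose start is in the RefSeq promoter table, it was 176 of 324 (54.3%) against 22.1%. The 63 Zfp genes with no peak in any library are described with the gene clusters below.

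Machinery of both marks was acetylated at nearly every start. Of 20 histone acetylation genes, 12 had shared regions and 19 had regions of 2 or 3 libraries. Kat7, an acetyltransferase, had folds of 8.57, 9.39 and 4.70, and Kat5, the Tip60 acetyltransferase, had 7.35, 8.79 and 5.44. Ep300, one of the main writers of H3K27ac, had 5.79, 5.70 and 4.33, and Hdac4, a deacetylase, had 8.04, 6.02 and 5.30. Replicate 3 was lowest at these 4 genes. Sirt1 was the single gene of the list below 2 libraries.

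Genes of H3K9 methylation and repeat silencing gave 12 of 25 in all 3 libraries and 23 of 25 in 2 or 3. Smchd1, a chromosomal silencing protein, had the most even values, with folds of 6.36, 5.69 and 6.27. Tasor, a HUSH complex subunit, had 6.95, 8.83 and 5.07, Cbx1, an HP1 protein, had 7.88, 6.00 and 4.72, and Trim28, the corepressor of KRAB zinc finger proteins, had 6.70, 5.78 and 4.11. Atf7ip had 8.15, 8.32 and 4.19. Setdb1 itself had peaks of 8.11 and 5.12 in replicates 1 and 2 and none in replicate 3, as did Setdb2 (7.68 and 4.99), and Dnmt3a and Uhrf1 had a peak in 1 library each. Ribosomal protein genes showed a similar share, with 37 of 73 in all 3 libraries and 66 in 2 or 3, with Rpl24 (7.34, 7.39 and 5.52) as an example. Of 67 clustered histone genes 32 were counted, but they share 20 distinct regions, since neighbouring histone genes lie within 1 kb of the same peak.

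**Figure D1:**
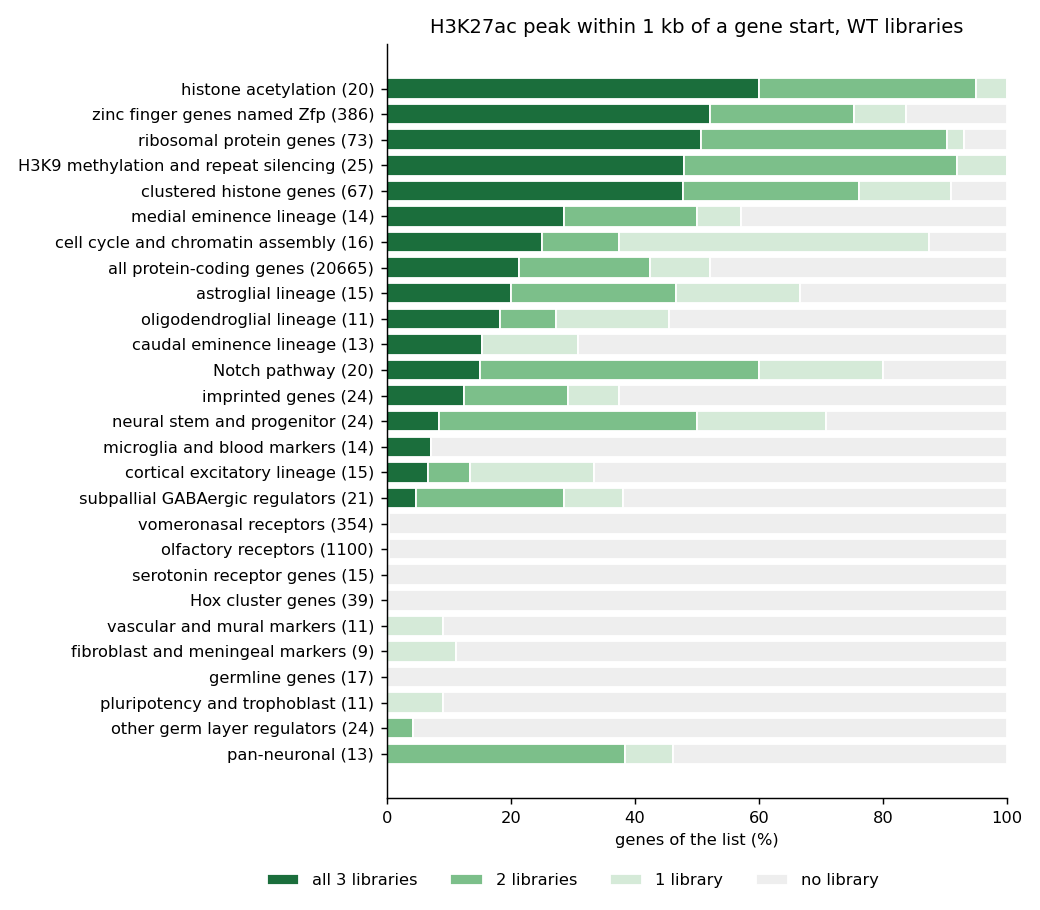
Share of genes in each list (horizontal axis, %) with an H3K27ac peak within 1 kb of a start in all 3, 2, 1 or none of the WT libraries, with the number of genes in brackets. Clustered protocadherins are not drawn. Histone acetylation genes, Zfp genes (52.1% in all 3), ribosomal protein and H3K9 methylation genes stand above all protein-coding genes (21.3%), while Hox and olfactory receptor genes have almost no peaks.

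The label of the cells was checked against markers, with a mixed outcome. Of 24 neural stem and progenitor genes, 12 had a region of 2 or 3 libraries (against 42.4% of all coding genes), but 2 had a shared region (8.33% against 21.3%). These were Fabp7, the brain lipid-binding protein of radial glia, with folds of 2.94, 2.73 and 2.90, and Sox9, a stem cell and gliogenic factor, with 3.48, 3.48 and 4.10. Both folds lay below the median of each list, at lowest percentiles of 0.529 and 5.76. Sox2 had 2.73 and 2.46 in replicates 1 and 2, Hes1 3.01 and 3.07, Vim 4.02 and 3.60, and Nes, the neural progenitor filament, 3.74 in replicate 1 only. No peak lay at the start of Pax6, Sox1, Notch1, Msi1, Hopx or Pou3f3. The stem cell genes were thus detected mostly in the 2 longer lists and at low fold.

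At their starts, regulators of the ganglionic eminence had sparse H3K27ac. Of 21 subpallial GABAergic genes, Foxp1, a striatal transcription factor, was the only member shared by all 3 libraries (5.00, 5.74 and 6.4), and 6 had 2 or 3. Dlx1 (4.74 and 3.60), Meis1, Foxp2 and Zfhx3 had peaks in replicates 1 and 2. Dlx2, Dlx5, Dlx6, Gsx1, Gsx2, Gad1, Gad2 and Isl1 had none. The medial eminence list had 7 of 14 in 2 or 3 libraries and 4 shared, which were Lmo4 (4.15, 4.73 and 5.19), Maf (3.9, 3.65 and 4.16), Sox6 (3.88, 2.78 and 3.28) and Zeb2 (3.24, 3.20 and 3.52). Nkx2-1, Lhx6 and Lhx8, which define medial eminence progenitors and their interneurons, had no peak. Of 13 caudal eminence genes, Prox1, a caudal interneuron factor, had 6.32, 6.38 and 6.63, among the most even values of any marker, and Egfr had 4.49, 3.87 and 3.25, and no other member had 2 libraries. Replicate 3 was the highest library at Foxp1, Lmo4, Maf, Zeb2 and Prox1, although its list was the shortest.

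In the Notch pathway, which keeps progenitors undifferentiated, 3 of 20 genes had shared regions and 12 had 2 or 3 libraries. The shared ones were the DNA-binding mediator Rbpj (9.53, 6.10 and 4.70), the target gene Heyl (4.66, 3.84 and 3.82) and the Hes family member Hes6 (6.05, 4.93 and 4.13). Among the ligands and receptors, Dll1, Jag1, Notch2 and Notch3 had peaks in replicates 1 and 2. Of 16 cell cycle genes, Mcm5, a replication helicase subunit (8.74, 6.79 and 5.17), Birc5 (5.78, 6.32 and 6.16), Cdk4 and Myc were shared, 6 had 2 or 3 libraries, and Mki67, Top2a, Cdk1, Pcna and Aurkb had a peak in replicate 2 only. Replicate 2 alone thus held several genes of dividing cells.

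Markers of other cells that such a culture could hold gave these values. Astroglial genes had 7 of 15 in 2 or 3 libraries and 3 shared, namely Gja1 (4.54, 4.10 and 3.88), Nfia (3.65, 3.62 and 3.99) and Sox9. Oligodendroglial genes had 3 of 11 in 2 or 3 libraries and 2 shared, Olig1 (5.82, 4.72 and 4.01) and Nkx2-2 (3.70, 3.14 and 4.24), with none at Sox10, Pdgfra, Mbp or Mog. No pan-neuronal gene was shared, and 5 of 13, such as Elavl4 (6.16 and 5.82), had 2 libraries. Tle4 was the shared member of 15 cortical excitatory genes, of which 2 had 2 or 3 libraries, and Emx1, Neurog2, Eomes and Tbr1 had no peak. Vascular and fibroblast markers had no region of 2 or more libraries at a start. Of 14 microglia and blood markers 13, Aif1, Cx3cr1 and Csf1r among them, had no peak. Defining microglial, endothelial and fibroblast genes were therefore without shared H3K27ac. None of 39 Hox genes, 17 germline genes, 11 pluripotency and trophoblast genes or 15 serotonin receptor genes had a shared region, and olfactory receptors had 1 of 1100.

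For H3K9me3, 47949 of the 50654 listed regions lay on chromosomes 1 to 19 and covered 80.3 Mb, with a median length of 1.4 kb and a longest region of 48.4 kb. The values of single libraries agreed to within a median coefficient of variation of 0.171, against 0.144 from counting error alone. This was 0.25 or less at 34764 regions (72.5%), called reproducible here. Spearman's rho of reads per kb over the regions was moderate, at 0.531 for positions 1 and 2, 0.533 for 1 and 3, and 0.673 for 2 and 3. WT-rich regions numbered 22765 (47.5%) and covered 42.9 Mb, and 80.5% of them were reproducible against 65.2% of the other listed regions. These shares were not adjusted for read count. Median counting error was 0.222 up to 20 reads per kb (2.65% WT-rich) and 0.128 from 40 to 60 (66.0%). The deposited values are whole multiples of 1.77, 0.820 and 0.725, the worth of 1 read at each position, so a typical region rests on 29, 68 and 69 reads, and the first listed value is the least precise. A few regions took most reads, since 18 with a mean above 10000 held 87.0%, 73.6% and 80.9% of all listed reads.

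**Figure D2:**
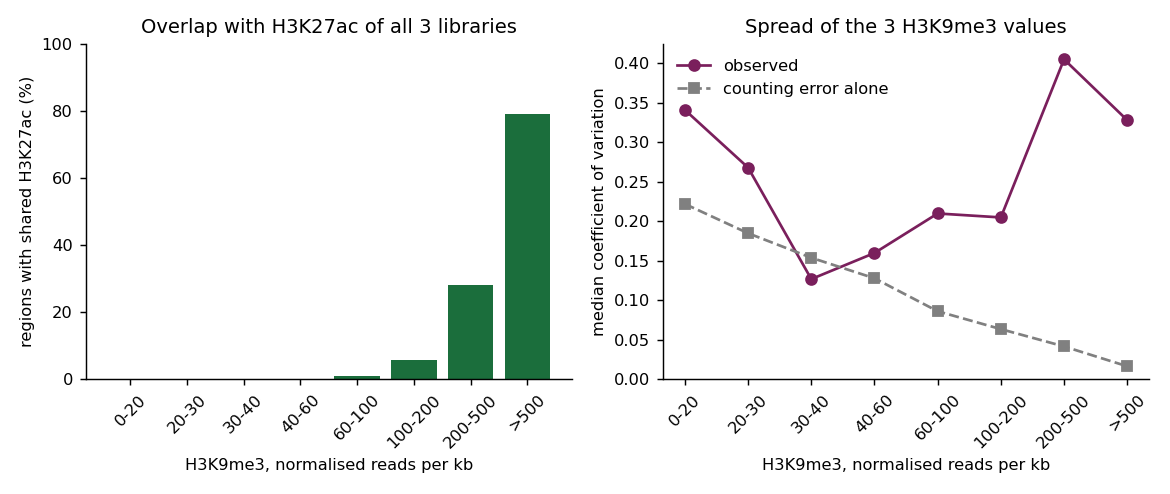
Listed H3K9me3 regions by mean normalised reads per kb (horizontal axes), with the share that overlaps a shared H3K27ac region (left, %) and the median coefficient of variation of the 3 values beside that expected from counting (right). The overlap reaches 79.0% above 500 reads per kb, where the observed variation (0.328) is far above counting error (0.0167).

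The 3 regions with the most H3K9me3 reads lay outside genes. By mean reads the leading region (chr2:98661301-98668300) had 2127000, 939500 and 1376000 reads per kb, followed by chr14:19414801-19420500 with 348100, 210100 and 302900, and by chr9:2999101-3039600, which is 40.5 kb long, with 49100, 29520 and 40520. Some regions with a mean above 10000 reads are assigned to a gene, with Chl1 (given above) and Rn45s, a ribosomal RNA gene (4545, 4420 and 10310), the highest. Below that mean, Sfi1, a centrosome gene in the first megabases of chromosome 11, led with 2415, 2812 and 2342 at its promoter (chr11:3192101-3194500). Aida (2352, 1770 and 2296), Kctd16 (1202, 829 and 1231), Zc3h7a (1122, 652 and 1578), Filip1l (732, 581 and 1578), Lars2 (793, 479 and 1218), Smo, the Hedgehog signal transducer (448, 1404 and 1553), Cdk8 (728, 440 and 1299) and Gphn (360, 353 and 734) followed. The highest of the 3 values was over 2 times the lowest at Zc3h7a, Filip1l, Lars2, Smo, Cdk8 and Gphn, and the median coefficient of variation was 0.405 between 200 and 500 reads per kb, the highest of any band. Such dense regions were few (147 above 200 per kb, 0.504 Mb), and their median WT enrichment was 2.06 against 1.45 for the other listed regions. The WT enrichment did not follow the reads per kb. It was 2.98 at Chl1, 1.42 at Aida, below the WT-rich limit, 1.71 at Kctd16 and 6.07 at Cdk8.

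Up to 200 reads per kb, zinc finger genes led. A cluster on chromosome 4 between 145 and 148 Mb held the highest reproducible values at genes. A region annotated to Gm13152 (chr4:147193801-147197700) led with 199.1, 199.4 and 196.9. In Zfp981 (chr4:146523201-146525100) the values were 175, 176 and 173, and in Zfp992 (chr4:146445601-146447200) 165, 161 and 176. Their coefficients of variation were 0.00829 and 0.0458. Sp140, a nuclear body gene on chromosome 1, had 160, 162 and 151. Over WT-rich regions of up to 200 reads per kb, the 3 windows of 1 Mb in this cluster had length-weighted means of 90.1 to 119 reads per kb, against 49.5 to 69.8 in the other 17 of the 20 windows with most WT-rich H3K9me3.

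Of the 386 Zfp genes, 180 had a listed region and 164 (42.5%) a WT-rich one, against 23.5% and 14.7% of all coding genes. Their 443 regions had medians of 46.9, 54.2 and 50.8 reads per kb, against 39.0, 44.0 and 37.5 over all genes, and 80.4% were WT-rich against 50.7%. Zfp781 held a single region of 32.3 kb (chr10:81895401-81927700) with 55.3, 65.9 and 67.4, and Zfp960 held 1 of 27.2 kb with 58.9, 86.2 and 84.0. The 3 values of the Zfp list were all above the same value of the background.

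Clustered protocadherins, the adhesion proteins that give neurons their surface identity, had 34 of 57 genes listed and 30 WT-rich. Their longest region, annotated to Pcdhga4, ran over 37.5 kb with 49.6, 69.6 and 68.4 reads per kb. Pcdhga10 had a region of 24.4 kb with 57.9, 90.5 and 92.2. The first value was lowest at both. Hox genes had 18 of 39 listed and 14 WT-rich, and regulators of other germ layers 11 of 24 and 9. Examples at starts are Sox17 of the endoderm (36.4, 60.1 and 64.0), Foxa2 of the same layer (32.3, 51.1 and 51.2) and Hoxd11 (37.1, 49.2 and 67.9). For Hox and germ layer genes the first value was below the other 2 in the list medians as well, at 37.7 against 49.99 and 53.2 and at 37.2 against 50.9 and 48.3. At the first position these lists therefore did not stand above all genes (39.0).

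The genes with the most listed H3K9me3 by length were of different kinds. Cntnap5a, a neurexin-related gene, had 84 regions over 120 kb with medians of 16.9, 20.9 and 19.3 reads per kb, and 10 of them were WT-rich. Cntnap5c (72.7 kb) and Nell1 (67.0 kb) were alike in having medians below 29 per kb. Tmem132d and Grip1, a synaptic scaffold, had 65.4 and 64.5 kb, of which 45.6 and 50.8 kb were WT-rich, at medians of 39.6, 45.1 and 41.4 and of 39.1, 46.2 and 42.9. Olfactory receptors resembled the first kind, with 238 of 1100 genes listed, 15 WT-rich and medians of 18.9, 21.0 and 21.8. Vomeronasal receptors had 143 of 354 listed and 26 WT-rich. A listed region is thus no sign of high WT signal, since the table was built from a comparison. Ribosomal protein, cell cycle and oligodendroglial genes had no listed region.

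**Figure D3:**
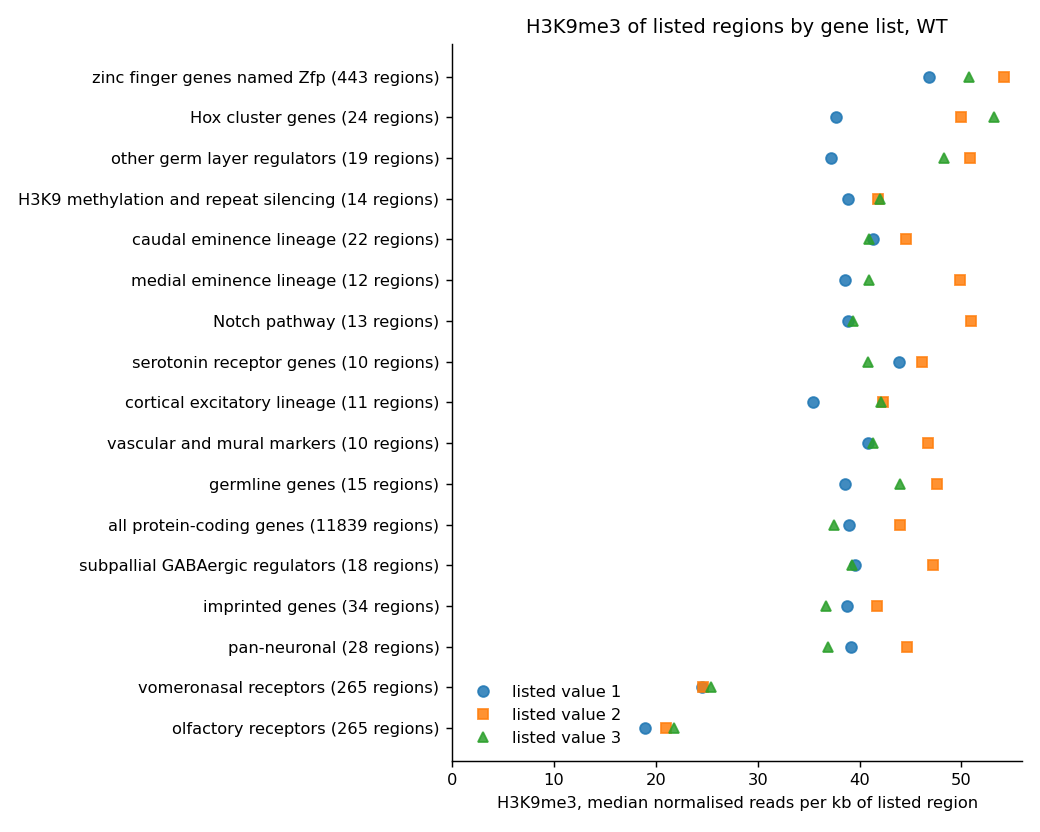
Median H3K9me3 (horizontal axis, normalised reads per kb of listed region) of the regions of each gene list with 10 or more regions, 1 point per listed WT value. Clustered protocadherins (57 regions, medians of 42.8, 50.6 and 36.7) are not drawn. Zfp genes are highest in the first value (46.9), olfactory and vomeronasal receptor genes are lowest in all 3, and the first value is low for Hox and germ layer genes.

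By the authors' annotation, listed regions at promoters had less H3K9me3 than those in gene bodies. Medians at the 1814 promoter regions were 35.5, 39.5 and 34.3 reads per kb and at the 11722 gene body regions 39.6, 44.3 and 37.8. The mean difference was -4.13 ± 0.671 (SD, n = 3), negative at all 3 positions (exact sign-flip permutation test, two-sided, p = 0.25, the smallest that 3 pairs allow, and 0.25 after adjustment over 4 differences). Subtelomeric regions had the highest class medians (42.6, 44.5 and 42.9) and the largest share of WT-rich regions, 63.7%.

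Starts inside WT-rich H3K9me3 were rare, with 215 of 20665 coding genes (1.04%). Protocadherins made up 21 of them and Zfp genes 14, of which 8 lie in the cluster on chromosome 4. Dazl, a germ cell RNA-binding protein gene whose promoter is printed above, had its start in a region with 37.2, 54.1 and 66.0 reads per kb (chr17:50292901-50293900) and no H3K27ac peak. Zfp990 had 119, 91.0 and 118 over 16.2 kb around its start, also without H3K27ac. None of the stem cell, Notch, eminence, cell cycle, ribosomal or silencing machinery genes had its start in such a region. The same held for the microglial, vascular, fibroblast and serotonin receptor lists. Beside 1.04% of all coding genes, a count of 0 in lists of 13 to 73 genes does not set them apart.

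The marks met at few regions. Of the 7826 shared H3K27ac regions, 181 (2.31%) overlapped a listed H3K9me3 region, and of the 47949 H3K9me3 regions, 143 (0.298%) overlapped a shared H3K27ac region, over 85.3 kb in all. Of those 143, 73 were above 200 reads per kb. Among such dense regions 49.7% carried shared H3K27ac, against 0.146% of all others. Medians of H3K9me3 were 149, 209 and 212 reads per kb with shared H3K27ac and 39.0, 42.4 and 37.0 without. The mean difference was 151 ± 35.2 (SD, n = 3) (exact sign-flip permutation test, two-sided, p = 0.25, the smallest possible, 0.25 adjusted). Without the dense regions 70 remained, with 51.0, 76.7 and 63.3 against 39.0, 42.4 and 37.0, a mean difference of 24.2 ± 11.3 (SD, n = 3) in the same direction (exact permutation p = 0.25). Leaving dense regions out, an alternative chosen after seeing the data, thus lowered the difference by over 6 times and the count from 181 to 70.

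By the authors' annotation, the 15 regions of both marks that led both orders were subtelomeric, pericentromeric, other intergenic or, at Chl1 and Kctd16, in a gene body. After the region in Chl1 came a pericentromeric one (chr12:3108901-3111000) with H3K9me3 of 1379000, 295700 and 414600 per kb and H3K27ac folds of 45.8, 35.8 and 36.0. Others were near the ends of chromosomes 19, 1, 16, 2, 18 and 7, and in Kctd16, a GABA-B receptor subunit gene, with folds of 20.2, 23.2 and 22.4. H3K27ac regions there were narrow, with a median of 434 bp over the leading 40 shared regions, and all but Chl1 and Kctd16 of the leading 15 had no gene in the authors' table. The labels do not say how reads that fit several copies of a repeat were placed, and its part in these values was not tested.

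At gene starts the marks were nearly separate. Of shared H3K27ac regions at starts 0.672% overlapped listed H3K9me3, against 4.67% of those away from starts. A start inside a listed region was found for 26 of the 4406 genes with shared H3K27ac (0.59%) and for 521 of the 9905 genes with no peak (5.26%). Over all coding genes it was 567 (2.74%). Gamma protocadherins are among the 26, and the 14 protocadherins counted with shared H3K27ac rest on 2 distinct regions. For 23 of the 57 protocadherins either gene end stood in for the start. At Pcdhga7 the H3K27ac region (chr18:37714794-37715222) lay at its own start in listed H3K9me3. The other region was shared by genes whose starts spread from 37668927 (Pcdhga2) to 37755773 (Pcdhga11). It therefore cannot lie at the starts of all of them, and such genes among the 26 do not show both marks at 1 start. Up to 200 reads per kb, shared H3K27ac at the start overlapped a listed region at several named coding genes outside the protocadherins. These were Zfp97, Zfp873, Smarca5, a chromatin remodeller, Crebzf, Hjurp, Tmem267, Sybu and Vmn2r29. The WT enrichment of the listed region was 0.67 at Hjurp, 0.97 at Crebzf and 1.33 at Sybu, so these 3 were not WT-rich. At the others it was 1.54 (Smarca5) to 2.45 (Vmn2r29). At Zfp873 the H3K27ac folds were 10.5, 9.44 and 8.17 and H3K9me3 was 53.2, 51.7 and 34.1 (chr10:82047701-82048700). At Zfp97 the folds were 7.11, 7.68 and 7.89 with 37.8, 45.9 and 35.8 (chr17:17120601-17122100). Since other animals were used for each mark, such an overlap does not place both on one allele or in one cell.

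Within genes the marks were counted at any distance. A shared H3K27ac region at the start and a WT-rich H3K9me3 region in the gene were found together for 715 of 20665 coding genes (3.46%). WT-rich H3K9me3 was found in 16.2% of genes with shared H3K27ac at the start, 13.1% of genes with no peak and 14.7% of all coding genes, so over all genes the marks met at close to the background. Zfp genes gave 94 of the 715, 24.4% of the Zfp list and 13.1% of the genes with both, while they make up 1.87% of coding genes. Among genes with shared H3K27ac at the start, 46.8% of Zfp genes and 14.8% of the others (621 of 4205) had WT-rich H3K9me3. In the whole Zfp list 42.5% had WT-rich H3K9me3 and 52.1% shared H3K27ac at the start. Inside this family too, the marks therefore met at close to its own background. The others were long, with a median of 108 kb, and include Anks1b, Fhit, Ctnnd2, Magi2 and Cdh13, whereas the 94 Zfp genes had a median of 19.4 kb. With peaks of −log10 q of 5 or more the counts were 327 genes and 58 Zfp genes, and without replicate 3 they were 1383 and 130.

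The 94 Zfp genes were chosen for H3K27ac at the start and WT-rich H3K9me3 in the gene, and the distance between them was not part of that choice. From the H3K27ac region to the nearest WT-rich region the median distance was 5.43 kb, and at 2 genes, Zfp97 and Zfp873, they overlapped. Zfp781 (chr10:81930126-81930495) had H3K27ac folds of 11.4, 5.82 and 5.07 and, 2.43 kb away, the region of 32.3 kb given above. Zfp930 had folds of 10.3, 10.2 and 5.46 and, 2.44 kb away, 24.5 kb of H3K9me3 at 61.9, 71.0 and 82.4 reads per kb. Zfp110 had 7.81, 7.18 and 4.79 with 16.5 kb at 64.1, 93.7 and 88.1 starting 1.36 kb away, and Zfp606 had 9.08, 7.46 and 6.20 with 15 kb at 63.7, 88.6 and 75.7 at 6.41 kb. Zfp442 held 7 WT-rich regions of 37.0 kb in all, and its longest, of 12 kb, lay 36.0 kb from the acetylated start. Over the 94 genes the longest region had medians of 49.4, 65.5 and 60.5, and it was reproducible at 76 of them.

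Measured from the start, WT-rich H3K9me3 of these genes rose over the first kilobases. At 0 kb it covered 1.14% of the 176 Zfp genes with shared H3K27ac and a start of known strand, at 3 kb 12.5%, at 8 kb 21.6% and at 12 kb 22.7%. For 3458 other acetylated genes it was 0.145% at 0 kb and 1.97% at 12 kb. Divided into 3 equal parts, these Zfp genes had 16.9%, 35.6% and 47.6% of their WT-rich bases in the first, middle and last part, and the other genes 37.2%, 34.4% and 28.3%. The 50 Zfp genes with no H3K27ac peak and a known strand had 28.6%, 27.8% and 43.6%, so their largest share was in the last part as well. At 0 kb they had 12%, and at 12 kb 22.0%, close to the 22.7% of the acetylated Zfp genes. At 10 kb before the start the shares were 22.0% without a peak and 10.2% with shared H3K27ac. The groups were not compared by a test. Promoters were also classed by peaks in a window of 250 bases before to 50 after a start. Of 112 Zfp promoters with no peak in that window, 8.04% lay in WT-rich H3K9me3. The share was 1.7% of 176 Zfp promoters with shared H3K27ac in the window and 0.896% of all promoters. Those 176 promoters belong to 154 genes and are not the 176 genes above.

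**Figure D4:**
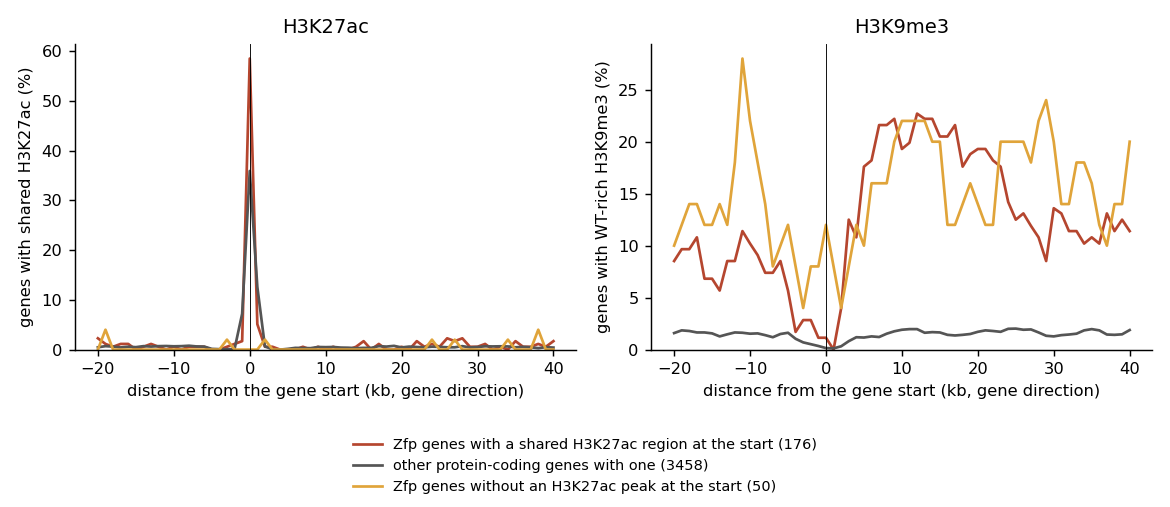
Share of genes (vertical axes, %) whose position at each distance from the start (horizontal axes, kb in the direction of the gene) lies in a shared H3K27ac region (left) or in WT-rich H3K9me3 (right). For Zfp genes with an acetylated start, H3K9me3 is near 0 at the start and reaches 22.7% at 12 kb, while other acetylated genes stay at about 2% or less. Zfp genes without a peak have 12% at the start and 22.0% at 12 kb.

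Zfp clusters differed among themselves. In the windows of chromosome 4 from 145 to 148 Mb, 1 of 16 Zfp genes had a shared H3K27ac region at its start, and these windows held 252, 258 and 330 kb of WT-rich H3K9me3. On chromosome 17 from 22 to 23 Mb, 5 of 6 Zfp genes had one beside 210 kb, and on chromosome 10 from 81 to 83 Mb 4 of 4 had one beside 215 and 161 kb. On chromosome 12 from 18 to 24 Mb, the 5 windows with the most WT-rich H3K9me3 of all (333 to 471 kb) held no shared H3K27ac region. Across 2142 windows with a coding gene, Spearman's rho of WT-rich kb and shared H3K27ac regions was 0.139, a description over windows of the same libraries that share gene content.

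Imprinted genes, which are expressed from 1 parental allele, had the marks side by side in several cases. At Peg10, a retrotransposon-derived gene that shares its start region with Sgce, H3K27ac folds were 5.56, 7.82 and 3.94 (chr6:4746566-4747116). Its WT-rich region lay 0.485 kb away with 38.7, 38.8 and 35.6 reads per kb. At Peg3 an H3K27ac region of replicates 1 and 2 (4.42 and 3.95) lay inside a WT-rich region with 47.5, 46.0 and 53.6. Ndn had H3K27ac of 5.22 and 4.16 and a WT-rich region 0.024 kb away with 44.3, 64.0 and 39.9, and Impact had 4.09 and 3.50 with one 0.172 kb away. Nnat had its start in H3K9me3 (33.9, 63.4 and 59.3) and no peak. At Gnas the distances were 29.0 to 43.3 kb. Of 24 imprinted genes, 3 had shared H3K27ac at the start, 7 had 2 or 3 libraries and 10 a WT-rich region, and allele of origin was not measured.

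Sequence before acetylated starts was rich in CpG. Over the 150 bases before 3106 promoters with shared H3K27ac, the median was 63.3% GC with 12 CpG, against 54.0% and 3 at 12582 promoters with no peak. ETS letters were found in 3.06% of promoters with no peak, in 7.5% of all 20085 coding promoters in 16.4% of those with a peak in 2 libraries and in 15.9% of Zfp promoters with shared H3K27ac. In the order of shared and no peak, Sp and Klf letters were found in 50.2% and 29.7% (38.8% of all), CREB letters in 3.54% and 0.882% (1.76% of all), and TATAAA in 2.74% and 10.3% (7.35% of all). NRF1 letters are in 2.89% of all promoters, ZBTB33 letters in 9.13% and YY1 letters in 2.32%. NFY letters were in 42.6% of Zfp promoters with shared H3K27ac in the window and in 26.3% of all. They were also in 40.2% of the 112 Zfp promoters with no peak there, which belong to 97 genes. By the 1 kb rule 63 Zfp genes had no peak, so some of these promoters belong to genes with a peak at a start. The 2 shares therefore do not compare acetylated with unacetylated Zfp genes.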

How the data were processed

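Per the submitters' processing notes, Bowtie2 2.3.4.3 and MACS2 (no version) were used with mm10; caller settings, any control and the tool behind the H3K9me3 table are not named there. Each H3K27ac library has a deposited peak list with a score, a fold enrichment (a ratio), and −log10 p and q values, per the narrowPeak format that MACS2 writes. The deposited H3K9me3 table holds, per the file headers, normalised read values of the WT libraries (a signal, 3 values joined in a cell), their mean and an enrichment ratio.

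Peaks were merged on chromosomes 1 to 19 where they overlapped by 1 bp. H3K9me3 was divided by region length. Starts came from the RefSeq promoter table (16457 coding genes), the annotation of the deposited table (1030) or, with no strand known, either gene end (3178), so neighbouring genes can share a peak. Promoters of chromosome 18 were missing from the RefSeq promoter table. A table symbol counted for a gene within 5 kb of it. Merging, overlap and the sign-flip test were tested on simulated lists. Named genes followed a rule of rank (the 15 strongest starts, 12 widest, 8 distal, 15 H3K9me3 regions at genes, 10 genes by kb, 15 with both marks, and up to 5 and 4 per list), and others in the text were chosen after their values were seen. The members and all gene lists were chosen with earlier results of these data known. Replicates were separate animals, and no test was run on H3K27ac. No column of per-sample values was left unmapped (0). Python 3.11.15, pandas 2.3.3, numpy 2.4.6, scipy 1.17.1 and matplotlib 3.10.9 were used. Alternatives covered thresholds, overlap, windows, list length, scaling and left-out libraries.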

Additional observations from a re-analysis of the deposited data

How the results depend on the processing

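Over 71 alternatives, 50 left a value in its direction and within 1.5 times, or with the same verdict, and 21 moved it; none turned a difference around. Shared H3K27ac regions numbered 7826, and 3021 and 388 with −log10 q of 5 and of 10 or more, 4489 with lists of equal length, and 7815 to 17915 without each library in turn, the highest without replicate 3. Genes with a shared region at their start numbered 4406, and 1715 where the region had to cover the start, 2041 with −log10 q of 5 or more, and 4314 to 8597 without each library. Of the 100 widest regions, 11 remained by merged width and 29 to 86 without each library. Reproducible H3K9me3 regions numbered 34764, and 20162 with a coefficient of variation of 0.15 and 7561 among regions of 2 kb or longer. H3K27ac regions in listed H3K9me3 numbered 181, and 668 with a peak of any library, 1102 within 5 kb, 70 up to 200 reads per kb (chosen after seeing the data) and 180 to 264 without each library. The H3K9me3 difference between regions with and without shared H3K27ac ranged from 22.6 (any library) to 470 (2 kb or longer), and was positive throughout; the smallest exact permutation p was 0.25, or 0.5 with 2 values. The difference between promoters and gene bodies ranged from -4.46 to -3.79. Of the 100 strongest regions, 68 to 94 remained for H3K27ac and 75 to 100 for H3K9me3. No paired analysis was possible because no 2 groups of samples were compared: only WT libraries enter and each mark has other animals; the sign-flip tests compare classes of regions within each listed value. Unknown H3K27ac depth limits any statement about a start without a peak.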
